A study of Homo sapiens with 4 samples.

Results

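The 10 genes described here, ATF4, ATF3, DDIT3, TRIB3, PPP1R15A, CHAC1, SESN2, ASNS, PSAT1 and PHGDH, belong to the integrated stress response and its transcription factor ATF4. They were chosen by name, with earlier results of these data known. Their probes were found by matching each probe's RefSeq accession to the gene, which gave 13 of the 41000 probes of the array. ATF4, ATF3 and TRIB3 had 2 probes each and the other 7 genes had 1. All 10 genes were among the 12159 named genes whose signal reached 100 on at least 1 array, and all 13 probes were marked as well above background on all 4 arrays.

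Total RNA was measured on single-colour Agilent whole genome arrays in SkBr3 and BT474 cells, both HER2-positive breast cancer cell lines, and in 1 lapatinib-resistant clone of each. The parental cells received vehicle. The clones SkBr3/Lap and BT474/Lap were selected with rising doses, up to 1 μM, of lapatinib, which blocks the kinases EGFR and HER2, and whether the drug was present when RNA was taken is not given for these arrays. Each group was 1 array and each model 1 clone (the sample labels and the study number the clones the opposite way round), so differences between arrays have no replicate check and no p-value.

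In the integrated stress response, kinases that sense amino acid shortage, misfolded protein in the endoplasmic reticulum, double-stranded RNA or heme deficiency phosphorylate the translation initiation factor eIF2. General protein synthesis then slows, while the mRNA of ATF4 is translated more efficiently. ATF4 pairs with C/EBP family proteins and switches on genes for amino acid synthesis and uptake, tRNA charging, redox balance and feedback control, and breast cancer cells are known to use the serine and asparagine synthesis genes of this program for growth.

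Most of the integrated stress response genes were lower in BT474/Lap than in BT474 cells, 7 of the 10 by at least 2-fold, while by the brightest probe PPP1R15A and PSAT1 were the genes past 2-fold in SkBr3/Lap, both higher than in SkBr3 cells. On a log2 scale relative to each array's 75th percentile, the median difference of the 10 genes between BT474/Lap and BT474 was -1.78 (range -2.59 to -0.01), beside -0.09 over all 12159 genes. The 7 genes at least 2-fold lower in BT474/Lap (ASNS, CHAC1, PSAT1, DDIT3, SESN2, PHGDH and TRIB3) stood against 5.40% of all genes, and 0 of the 10 were at least 2-fold higher, against 9.20%. Scaling by the array median lowered the median of all genes in BT474/Lap from -0.09 to -0.29 and the share of higher genes among those past 2-fold from 63.0% to 46.6%, and the 10 genes still counted 7 lower. In SkBr3/Lap the median difference of the 10 genes from SkBr3 was 0.72 (range -0.22 to 1.23), beside -0.06 over all genes. The 2 genes at least 2-fold higher stood against 14.1% of all genes, and 0 were at least 2-fold lower, against 14.4%, so neither count was far from the share over all genes. The count of 2 depended on the scaling, and was 1 or 4 under other choices. The arrays were on different slides for SkBr3 and SkBr3/Lap, so slide and resistance cannot be told apart there, whereas BT474 and BT474/Lap had the same slide, which also held SkBr3.

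**Figure D1:**
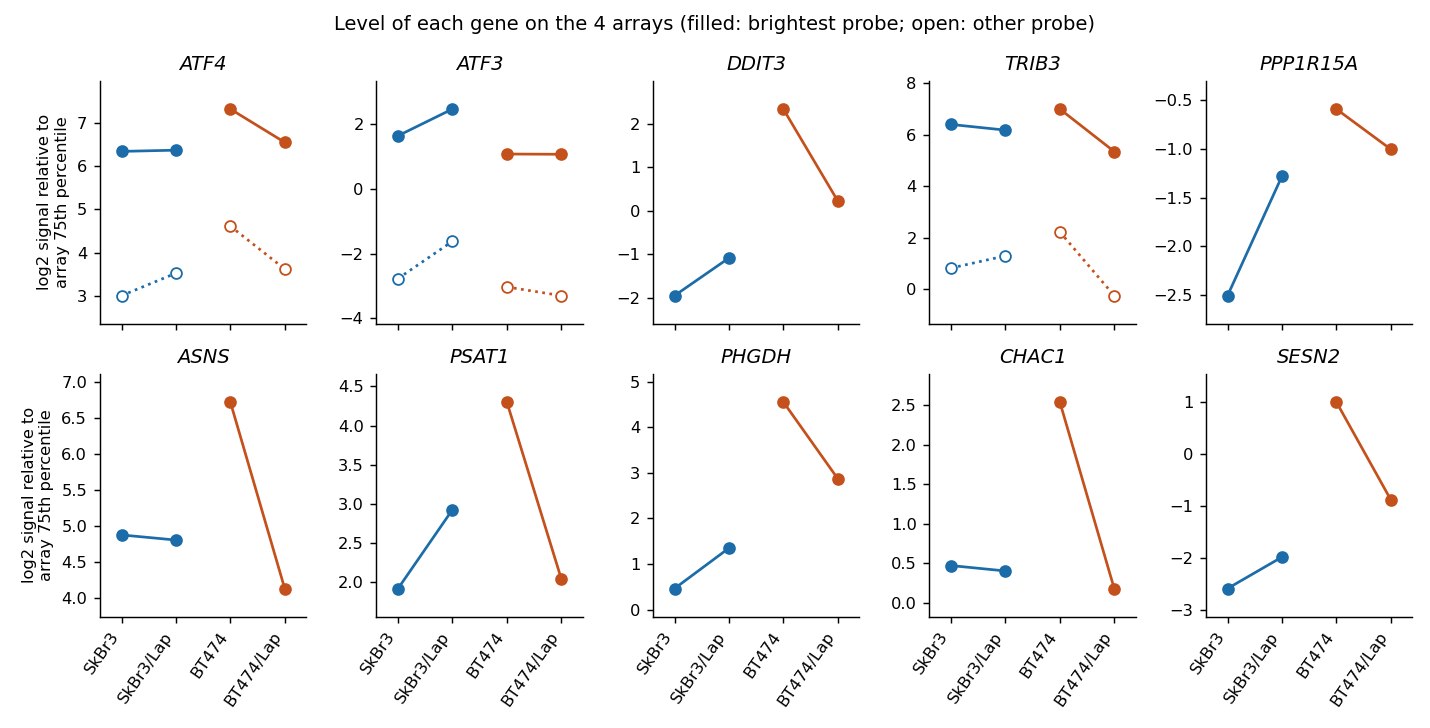
Level of each of the 10 genes on the 4 arrays, as log2 signal relative to the array's 75th percentile, with filled points for the brightest probe and open points for the other probe of ATF4, ATF3 and TRIB3. Parental cells and their clone are joined by a line, and for 9 of the 10 genes the highest point is BT474, with ATF3 as the exception.

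The plot of levels on the 4 arrays shows where these differences lay. By the brightest probe of each gene, BT474 cells had the highest level of 9 genes and SkBr3/Lap cells that of ATF3. The share of all genes that were highest in BT474 was not counted. The lowest level was in SkBr3 for 6 genes (ATF4, DDIT3, PPP1R15A, PSAT1, PHGDH and SESN2) and in BT474/Lap for the other 4. The spots of a probe printed 10 times on an array differed by a median SD of 0.07 to 0.08 on the log2 scale. Probes of the same gene differed more, and over 3961 genes with more than 1 probe the median range between the log2 differences that they gave was 0.31 for SkBr3/Lap and 0.30 for BT474/Lap. Neighbours in the order of levels that were closer than this are named below. Where 4 values of a gene are listed, they follow the order SkBr3, SkBr3/Lap, BT474, BT474/Lap.

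The mRNAs of the 4 kinases that start the response differed from the parental cells by less than 2-fold in both clones. Over all genes above background on both arrays of a line, the shares past 2-fold were 11.6% (higher) and 12.9% (lower) for SkBr3, and 7.68% and 5.11% for BT474, so 0 of 4 is not a result about the kinases. These shares are the ones set beside the other lists below. EIF2AK3 (PERK), which responds to misfolded protein in the endoplasmic reticulum, differed by -0.75 on the log2 scale in SkBr3/Lap and by 0.00 in BT474/Lap. EIF2AK4 (GCN2), which responds to uncharged tRNA, differed by 0.64 and 0.16. EIF2AK1 (HRI), which responds to heme shortage, differed by -0.26 and -0.66, and EIF2AK2 (PKR), which responds to double-stranded RNA, by 0.09 and 0.33. Array signals give no measure of kinase activity, nor of eIF2 phosphorylation.

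ATF4 itself, the transcription factor at the centre of the response, is regulated largely at translation, which these arrays do not read. Before scaling, its brighter probe gave signals of 90144, 170979, 184550 and 157115 in SkBr3, SkBr3/Lap, BT474 and BT474/Lap. Relative to the 75th percentile of each array these were log2 levels of 6.34, 6.37, 7.32 and 6.55. BT474 stood above the other 3 arrays, and SkBr3, SkBr3/Lap and BT474/Lap were within 0.21 of each other, less than the usual range between probes. The log2 difference was 0.03 in SkBr3/Lap and -0.77 (1.70-fold lower) in BT474/Lap. The second probe gave 0.52 and -0.99, so the probes differed for SkBr3/Lap and had the same direction for BT474/Lap. For this bright probe the value depended on the scaling, and quantile normalization gave 0.38 and -0.36.

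ATF3 and DDIT3 encode transcription factors of the same bZIP class that ATF4 induces, and in BT474/Lap DDIT3 was lower while ATF3 was near its parental level. ATF3, an early stress-induced factor, had signals of 3501, 11563, 2458 and 3546 in SkBr3, SkBr3/Lap, BT474 and BT474/Lap. Its log2 levels were 1.65, 2.48, 1.09 and 1.08, highest in SkBr3/Lap and the same to within 0.01 in BT474 and BT474/Lap. The difference was 0.83 (1.78-fold higher) in SkBr3/Lap and -0.01 in BT474/Lap. The dimmer probe gave 1.15 and -0.27. In BT474/Lap, 56.2% of all genes had a lower log2 difference than ATF3, and 1.27% a lower one than DDIT3.

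DDIT3 (CHOP), which promotes cell death when stress persists, had signals of 290, 980, 5858 and 1973 on the same 4 arrays. Its log2 levels were -1.94, -1.08, 2.34 and 0.23, so that both BT474 arrays were above both SkBr3 arrays. BT474/Lap was 4.31-fold lower than BT474 (log2 difference -2.11) and SkBr3/Lap 1.82-fold higher than SkBr3 (0.86). Between the parental lines DDIT3 differed the most of the 10 genes, with 19.5-fold more signal in BT474 than in SkBr3.

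TRIB3 and PPP1R15A act as brakes on the response. TRIB3, a pseudokinase that binds ATF4 and DDIT3 and restrains them, had signals of 94346, 150600, 148619 and 68535 and log2 levels of 6.40, 6.18, 7.0 and 5.35 on the 4 arrays. BT474/Lap was the lowest array and BT474 the highest, while SkBr3 and SkBr3/Lap were 0.22 apart, less than the usual range between probes. TRIB3 was 3.15-fold lower in BT474/Lap (log2 difference -1.65), and the second probe gave -2.48. In SkBr3/Lap its probes gave -0.22 and 0.48, with no common direction.

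PPP1R15A (GADD34) brings protein phosphatase 1 to eIF2 and ends the response, and its pattern was unlike that of TRIB3. Its signals were 196, 853, 770 and 839 in SkBr3, SkBr3/Lap, BT474 and BT474/Lap, and its log2 levels -2.51, -1.28, -0.59 and -1.0. SkBr3 was the low array, and SkBr3/Lap and BT474/Lap were 0.28 apart. PPP1R15A was 2.34-fold higher in SkBr3/Lap (log2 difference 1.23), the largest of the 10 genes in that clone, and its difference in BT474/Lap was -0.41. PPP1R15B, the constitutive partner of the same phosphatase, also stood higher in SkBr3/Lap, with signals of 216 and 1328 and a log2 difference of 1.73, beside -0.26 in BT474/Lap.

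CHAC1 and SESN2 connect the response to glutathione and to amino acid sensing, and both were lower in BT474/Lap. CHAC1, which breaks down glutathione, had signals of 1543, 2738, 6732 and 1903 in SkBr3, SkBr3/Lap, BT474 and BT474/Lap. Its log2 levels of 0.47, 0.40, 2.54 and 0.18 put BT474 alone at the top, with the other 3 arrays within 0.29. CHAC1 was 5.13-fold lower in BT474/Lap (log2 difference -2.36), and the -0.07 in SkBr3/Lap was within the usual range between probes.

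SESN2, a sestrin that restrains mTORC1 when leucine is short, had signals of 186, 526, 2312 and 916, or log2 levels of -2.58, -1.98, 1.00 and -0.88. The order of the arrays was that of DDIT3, with BT474 highest and SkBr3 lowest. SESN2 was 3.66-fold lower in BT474/Lap (log2 difference -1.87) and 1.52-fold higher in SkBr3/Lap (0.60).

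ASNS, PSAT1 and PHGDH, the amino acid synthesis enzymes among the 10 genes, were all at least 3-fold lower in BT474/Lap. ASNS, which makes asparagine from aspartate and glutamine, had signals of 32593, 57719, 121960 and 29335 in SkBr3, SkBr3/Lap, BT474 and BT474/Lap. Its log2 levels were 4.87, 4.80, 6.72 and 4.13, so BT474 stood alone at the top and BT474/Lap lay below both SkBr3 arrays. The 6.03-fold lower level in BT474/Lap (log2 difference -2.59) was the largest change of the 10 genes, and 0.73% of all genes were lower than this. In SkBr3/Lap the difference was -0.07, within the usual range between probes.

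PHGDH, which catalyses the first step of serine synthesis from 3-phosphoglycerate, had signals of 1539, 5287, 27208 and 12319 in SkBr3, SkBr3/Lap, BT474 and BT474/Lap. Its log2 levels were 0.46, 1.35, 4.55 and 2.87, and both BT474 arrays were above both SkBr3 arrays. PHGDH was 3.20-fold lower in BT474/Lap (log2 difference -1.68) and 1.85-fold higher in SkBr3/Lap (0.89). PSAT1, the transaminase of the next step, had signals of 4201, 15725, 22857 and 6918 and log2 levels of 1.91, 2.92, 4.30 and 2.04. Here SkBr3/Lap was above BT474/Lap, and SkBr3 and BT474/Lap were 0.13 apart. PSAT1 was 4.79-fold lower in BT474/Lap (log2 difference -2.26) and 2.01-fold higher in SkBr3/Lap (1.01), which is at the 2-fold limit.

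**Figure D2:**
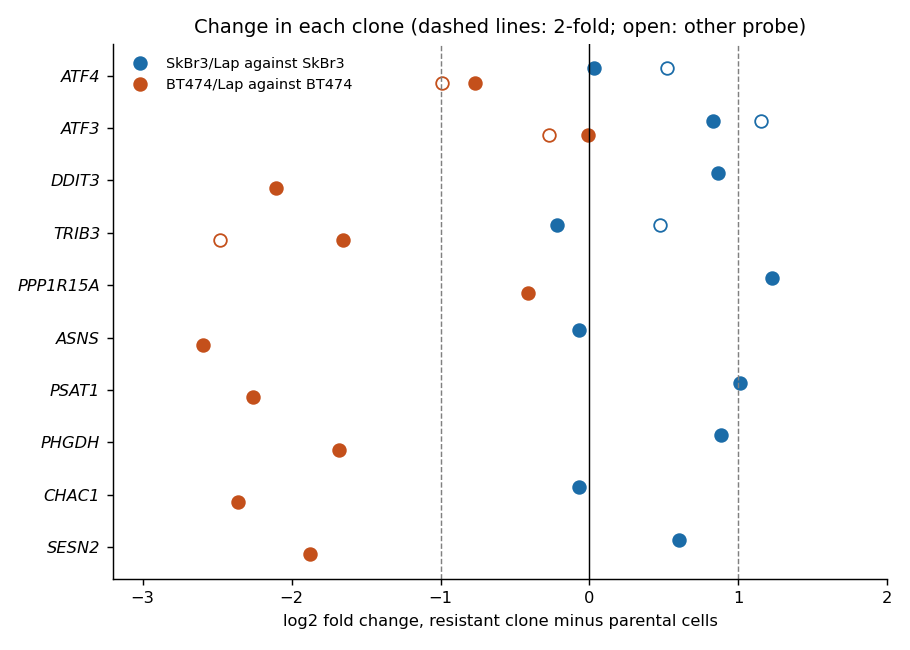
Log2 fold change of each of the 10 genes, clone minus parental cells, in SkBr3/Lap (blue) and BT474/Lap (orange), with filled points for the brightest probe, open points for the other probe and dashed lines at 2-fold. By the brightest probe, 7 genes lie beyond the lower 2-fold line in BT474/Lap and 2 beyond the upper line in SkBr3/Lap.

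**Figure D3:**
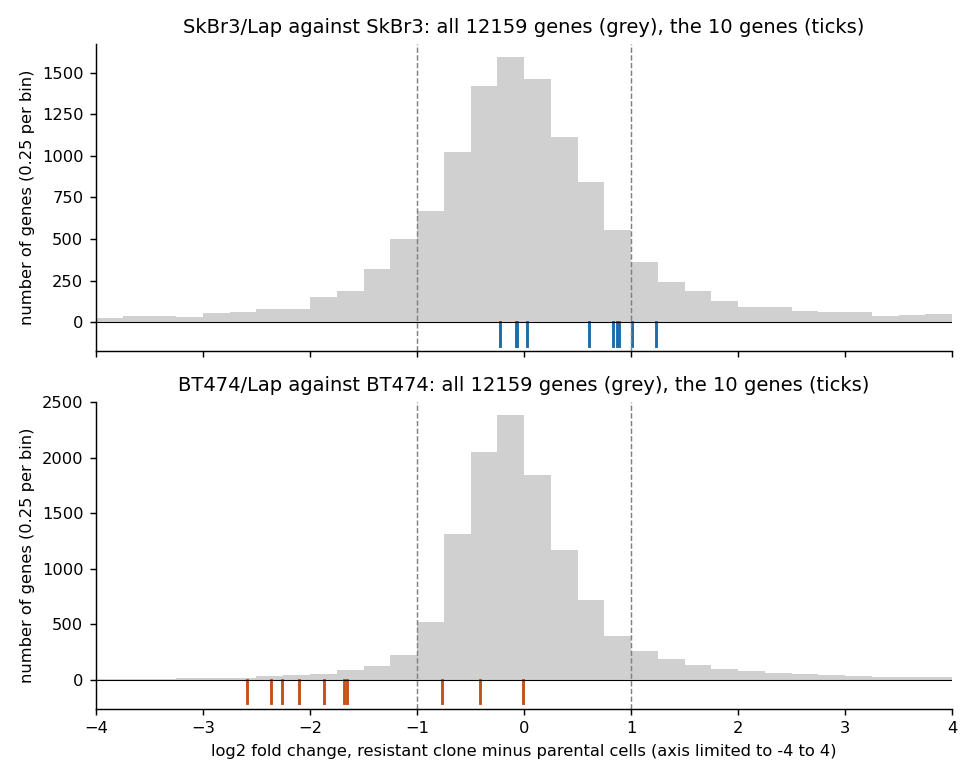
Number of genes per bin of log2 fold change in SkBr3/Lap (upper panel) and BT474/Lap (lower panel) over the 12159 genes, with the 10 genes as ticks below the axis and dashed lines at 2-fold. The fold changes of SkBr3/Lap are spread more widely, and the ticks of BT474/Lap reach into the lower tail, where ASNS lies at -2.59.

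As the distribution of all fold changes shows, 7 of the 10 genes were in the lowest 2.11% of all genes in BT474/Lap. ATF4 came next, with 9.15% of the genes below it, then PPP1R15A with 25.7% and ATF3 with 56.2%. In SkBr3/Lap the genes lay between 41.7% (TRIB3) and 88.6% (PPP1R15A) of the way up the same ranking. A test with both cell lines as replicates of resistance, limma with the cell line as a block and 1 residual degree of freedom, gave no Benjamini-Hochberg adjusted p below 0.05 for any of the 25927 probes (0.00%), and unadjusted p-values below 0.05 for 900 of them. The unadjusted p of the 13 probes of the 10 genes was between 0.18 and 0.71 by limma, and 0 were below 0.05.

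Promoter sequence was examined for the motifs that ATF4 and related factors bind, and the 4 stretches that hold one among the 10 genes are shown. The motifs were TGATGNAA, the core of the C/EBP-ATF response element, and TGACGTCA, the cyclic AMP response element, searched on both strands from 250 bases before to 50 bases after each start site of RefSeq (GRCh38.p14). All 10 genes had an entry, 16 in all, and distances are from the start site of the entry that holds the motif. TGATGNAA was found in 3 of them (ASNS, CHAC1 and ATF3) and in 4.46% of the 27305 genes with an entry, or 3.62% of 35116 promoters. TGACGTCA was found in PPP1R15A alone among the 10 and in 2.25% of all genes, or 1.85% of promoters. The sequences below are written 5′ to 3′ along the gene's strand, with the motif in capitals.
ASNS, chr7:97872439-97872506, minus strand, motif starting 68 bases before the start site: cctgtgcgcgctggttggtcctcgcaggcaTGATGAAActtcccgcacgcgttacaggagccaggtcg
CHAC1, chr15:40953232-40953299, plus strand, motif on the opposite strand and starting 209 bases before the start site: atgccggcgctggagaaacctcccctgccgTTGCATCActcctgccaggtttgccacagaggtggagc
ATF3, chr1:212565186-212565253, plus strand, motif starting 191 bases before the start site: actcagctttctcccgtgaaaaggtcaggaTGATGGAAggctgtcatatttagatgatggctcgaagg
PPP1R15A, chr19:48872333-48872400, plus strand, motif starting 58 bases before the start site: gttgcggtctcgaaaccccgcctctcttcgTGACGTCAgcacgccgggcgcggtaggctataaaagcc
ASNS and CHAC1, with the lowest and next lowest log2 differences in BT474/Lap (-2.59 and -2.36), hold TGATGNAA in this window, as does ATF3, whose difference was -0.01. The other 5 genes that were at least 2-fold lower hold neither motif in it. A match of these letters describes the sequence and does not by itself show binding, and no match says nothing of sites elsewhere.

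The parental lines differed in the same genes. BT474 was above SkBr3 in 9 of the 10, with ATF3 as the exception (-0.57), and at least 2-fold above it in 7, against 19.7% of all genes, and in 0 at least 2-fold below it, against 19.1%. The median difference was 1.99 on the log2 scale. It was largest for DDIT3 (19.5-fold), PHGDH (17.0-fold) and SESN2 (12-fold), and below 2-fold for ATF4 (1.97-fold) and TRIB3 (1.52-fold).

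Between the resistant clones the genes were closer. The median difference of BT474/Lap from SkBr3/Lap was -0.02, with 5 genes above 0 and 5 below. PHGDH (2.87-fold), DDIT3 (2.48-fold) and SESN2 (2.15-fold) were at least 2-fold higher in BT474/Lap, against 23.6% of all genes, and ATF3 at least 2-fold lower (log2 difference -1.40), against 24.2%. The absolute difference between the lines was smaller in the clones than in the parental cells for 8 of the 10 genes, and larger for ATF3 and TRIB3. The share of all genes with a smaller difference in the clones was not counted, so this count is not a result particular to these genes. These differences use the same 4 arrays as the changes within each line, so they are not further evidence for them. The clones were on different slides and the parental cells on the same one, so slide and clone cannot be told apart here.

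**Figure D4:**
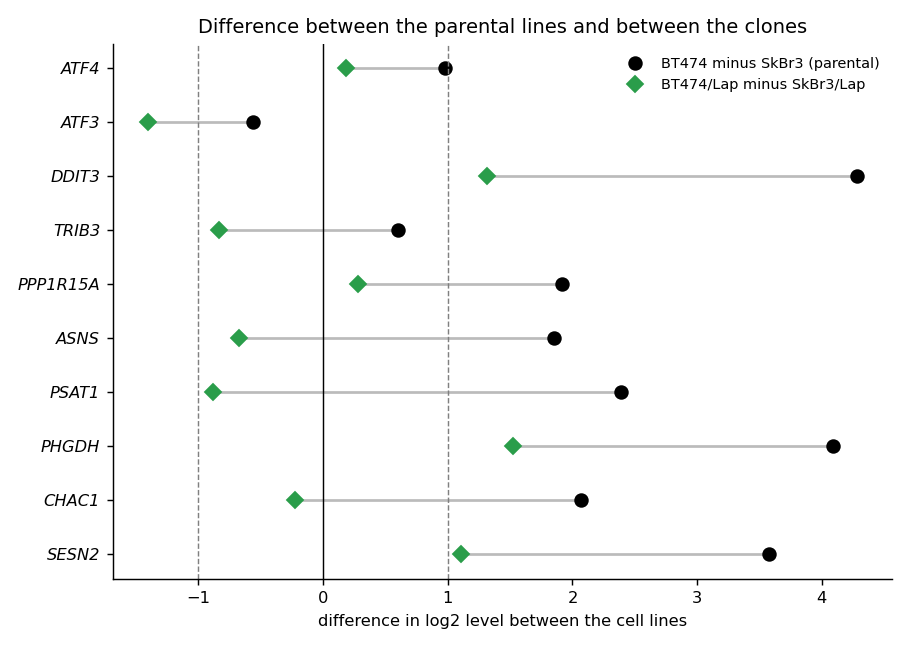
Difference in log2 level of each of the 10 genes between the parental lines (BT474 minus SkBr3, circles) and between the clones (BT474/Lap minus SkBr3/Lap, diamonds), with dashed lines at 2-fold. The circles have a median of 1.99 and the diamonds one of -0.02.

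Genes that work with ATF4 were described by lists that do not contain the 10 genes. Like the 10 genes, these lists were chosen with earlier results of these data known, so their counts are not independent evidence. The lists of its amino acid transporters, its amino acid and one-carbon enzymes, the aminoacyl-tRNA synthetases and a set of other induced genes held 47 genes, of which 43 had a named probe. In BT474/Lap, 41 were above background on both arrays, of which 23 were past 2-fold on the lower side (5.11% of all genes) and 0 on the higher side (7.68%), with a median log2 difference of -1.13. In SkBr3/Lap, 39 were above background on both arrays. By the brightest probe, 7 of them were past 2-fold on the higher side (11.6% of all genes) and 0 on the lower side (12.9%), with a median of 0.31. By direction alone, 36 of 41 were lower in BT474/Lap and 27 of 39 higher in SkBr3/Lap, and the shares of all genes by direction alone were not counted.

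The aminoacyl-tRNA synthetases, which load tRNAs with amino acids, were lower in BT474/Lap in 11 of the 12 measured genes (XPOT, a tRNA export factor, included). Of these, 9 were at least 2-fold lower, against 5.11% of all genes, and the median over the 12 was -1.32. The second probes of MARS1, XPOT and LARS1 gave -1.97, -1.54 and -0.09, so LARS1 was among the 9 by its brightest probe alone (-1.22). WARS1, the tryptophan enzyme, went from a signal of 5718 to 1572 (log2 difference -2.40) and YARS1, the tyrosine enzyme, from 2881 to 1268 (-1.72). In SkBr3/Lap none of the 12 was past 2-fold by the brightest probe, against 11.6% (higher) and 12.9% (lower). The median was 0.26, with WARS1 at 0.92 and EPRS1, the glutamate and proline enzyme, at -0.91. There the second probes of MARS1, XPOT and LARS1 gave 1.32, 0.14 and 0.07, so MARS1 was past 2-fold by its dimmer probe. TGATGNAA was found in the promoter window of 7 of the 11 genes of this list with an entry, against 4.46% of all genes. These include CARS1, which had no named probe, and NARS1, which differed by 0.02 in BT474/Lap. The other target lists held it in 4 of 8 transporters, 1 of 5 amino acid and one-carbon enzymes and 2 of 10 other induced genes.

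Among enzymes of amino acid and one-carbon metabolism, 5 of 8 were at least 2-fold lower in BT474/Lap, against 5.11% of all genes, and the median was -1.19. CBS, which joins serine and homocysteine in the path to cysteine, went from 21914 to 7666 (log2 difference -2.05) in BT474/Lap. In SkBr3/Lap it went the other way, from 1637 to 24965 (3.03). Its second probe gave -2.18 and 3.06. GPT2, a mitochondrial alanine transaminase, differed by -1.59 in BT474/Lap, and its second probe gave -2.96. GOT1, an aspartate transaminase, differed by 0.90 in SkBr3/Lap (0.81 by its second probe). In that clone CBS was the 1 enzyme of 8 past 2-fold, near the 11.6% of all genes, and the median was 0.32.

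Of the amino acid transporters, 3 of 8 were at least 2-fold lower in BT474/Lap, against 5.11% of all genes, with a median of -0.71. SLC7A11, the cystine carrier that feeds glutathione synthesis, went from a signal of 298 to 38.2 (11.3-fold lower, log2 difference -3.50), and its second probe gave -4.66. SLC1A5, a glutamine carrier, differed by -2.31. In SkBr3/Lap, SLC7A5, a carrier of large neutral amino acids, was by the brightest probe the 1 transporter of 7 past 2-fold, near the 11.6% of all genes. It went from 7807 to 40163 (log2 difference 1.47). SLC1A4, a carrier of serine and other neutral amino acids, differed by -0.77 there. Its second probe gave -1.06, so SLC1A4 was past 2-fold on the lower side by its dimmer probe. The median was 0.02.

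The other induced genes included wide differences. GDF15, a secreted stress factor, was 19.2-fold higher in SkBr3/Lap than in SkBr3 (signals of 84968 and 2378, log2 difference 4.26). It was 63.0-fold lower in BT474/Lap than in BT474 (556 and 24127, log2 difference -5.98). VLDLR, a lipoprotein receptor, differed by 2.64 in SkBr3/Lap (371 to 4296) and by -2.0 in BT474/Lap. DDIT4 (REDD1), an inhibitor of mTORC1, differed by -2.44 in BT474/Lap and by -0.55 in SkBr3/Lap. Of the genes above background on both arrays, 5 of 12 were at least 2-fold higher in SkBr3/Lap, against 11.6% of all genes, with a median of 0.73, and 6 of 13 at least 2-fold lower in BT474/Lap, against 5.11%, with a median of -0.58. STC2, a secreted glycoprotein picked out after its values were seen, is not among the 12, since it was not well above background in SkBr3. It was at least 21.6-fold higher in SkBr3/Lap and differed by 0.79 in BT474/Lap.

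The bZIP proteins that pair with ATF4 or share its sites differed from one another. They were counted with NUPR1, a stress-induced gene whose product is not a bZIP protein. CEBPB, a C/EBP factor of stress and inflammation, went from 74873 to 29113 in BT474/Lap (log2 difference -1.90), and CEBPG, a partner of ATF4 in amino acid gene control, differed by -1.38. CEBPD, an acute phase factor, was higher in both clones, with a log2 difference of 2.63 in SkBr3/Lap (5197 to 59825) and 1.20 in BT474/Lap. CEBPG differed by 0.79 in SkBr3/Lap. With NUPR1 included, BT474/Lap had 2 of 8 past 2-fold on the lower side, against 5.11% of all genes, and 1 on the higher side, near the 7.68% (median -0.62). SkBr3/Lap had 1 of 7 on the higher side, near the 11.6% (median 0.05). BATF3, a bZIP factor picked out after its values were seen, is not among the 7, since it was not well above background in SkBr3, and it was at least 8.16-fold higher in SkBr3/Lap.

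Subunits of eIF2 and of its exchange factor eIF2B, which eIF2 phosphorylation inhibits, were counted with EIF2A and PPP1R15B. EIF2A is an initiation factor that is not a subunit of eIF2 or eIF2B. Of these 10 genes, by the brightest probe, 1 was at least 2-fold higher in SkBr3/Lap (PPP1R15B itself), near the 11.6% of all genes. In that clone 0 were at least 2-fold lower, against 12.9%. In BT474/Lap 0 were past 2-fold, against 7.68% (higher) and 5.11% (lower), so these counts are not a result about these genes. The medians were 0.42 in SkBr3/Lap and -0.31 in BT474/Lap. The differences of EIF2B2 were 0.80 in SkBr3/Lap and -0.68 in BT474/Lap. EIF2B3 differed by -0.67 in BT474/Lap.

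The other branches of the unfolded protein response, led by ATF6 and XBP1, were counted for comparison. Of 14 chaperones and factors of these branches, 4 were at least 2-fold lower in SkBr3/Lap (12.9% of all genes, list median -0.58) and 1 in BT474/Lap (5.11%, list median -0.44), and 0 were at least 2-fold higher in either (11.6% and 7.68%). XBP1, the transcription factor activated by IRE1, differed by -2.67 in SkBr3/Lap and -0.71 in BT474/Lap. DNAJB9, an endoplasmic reticulum co-chaperone, differed by -1.80 in SkBr3/Lap. HYOU1, an endoplasmic reticulum chaperone, was the 1 gene past 2-fold in BT474/Lap (-1.16). TGATGNAA was found in 0 of the 16 promoter windows of the 14 genes of this list, against 3.62% of all promoters, so this 0 is not a result about these genes.

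**Figure D5:**
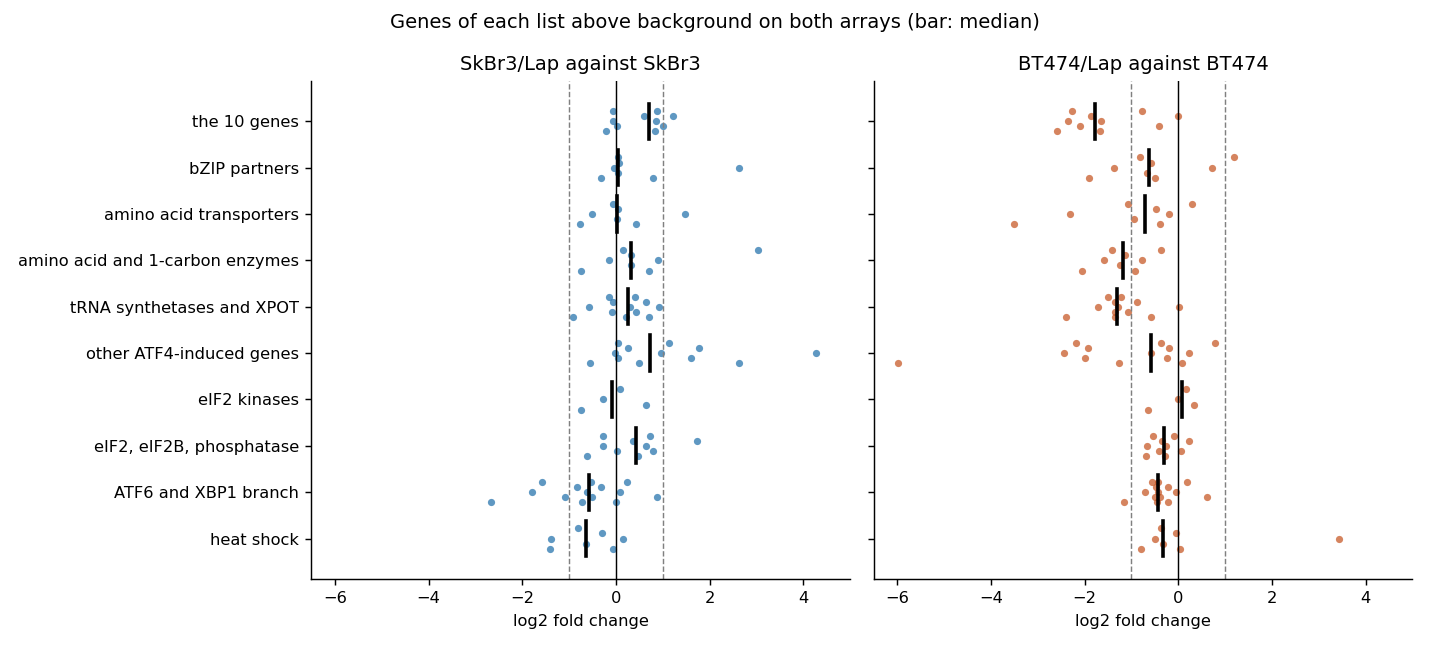
Log2 fold change, clone minus parental cells, of the genes of each list above background on both arrays of the line, in SkBr3/Lap (left) and BT474/Lap (right), with black bars at the list's median and dashed lines at 2-fold. In BT474/Lap the medians of the 10 genes (-1.78), the tRNA synthetases (-1.32) and the amino acid and one-carbon enzymes (-1.19) lie beyond the lower 2-fold line, and those of the eIF2 kinases (0.08) and of the ATF6 and XBP1 branch (-0.44) do not.

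The labels of the cells were set against marker genes. ERBB2, which encodes HER2, the keratins KRT8, KRT18 and KRT19 and EPCAM were well above background on all 4 arrays, and the summed level of 6 epithelial markers was 806, 483, 749 and 500 times the 75th percentile signal in SkBr3, SkBr3/Lap, BT474 and BT474/Lap. For CDH1 (E-cadherin) neither SkBr3 array was well above background. ERBB2 differed by -1.90 on the log2 scale in SkBr3/Lap, KRT19 by -0.82 and -0.65 in SkBr3/Lap and BT474/Lap, and EPCAM by -0.93 in BT474/Lap. Of 7 leukocyte, endothelial and fibroblast markers with a probe, PTPRC, COL1A2 and DCN were not well above background on any array. In the same unit the 7 summed to 0.44, 0.96, 0.08 and 0.10 in SkBr3, SkBr3/Lap, BT474 and BT474/Lap. Within it CDH5, an endothelial cadherin, went from a signal of 58.4 to 915 in SkBr3/Lap and CD3E, a T cell receptor subunit, from 35.1 to 134. A second CD3E probe went from 21.7 to 37.0. After scaling, the log2 differences of the CD3E probes in SkBr3/Lap were 1.04 and -0.12, with no common direction. PECAM1, another endothelial gene that was picked out after its values were seen, was above background in both clones and in neither parental line. In BT474/Lap CD3E differed by 0.20 (-0.12 by its second probe) and CD68, a macrophage marker, by -0.47. The part of these markers in the differences described above was not tested.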

How the data were processed

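For each spot the authors deposited a processed signal (a linear intensity with the background subtracted and spatial trends removed) and the median pixel intensities of the spot and of its local background. Per the file headers these came from Feature Extraction 10.1.1.1 with Cy3 alone. The methods differ in naming Cy3 or Cy5, LOWESS normalization and an older release of the software. The deposited table of log2 values per probe is centred for each probe. Its column medians were 0.12, -0.20, 0.11 and -0.05 for SkBr3, SkBr3/Lap, BT474 and BT474/Lap. Array differences from it and from the processed signals were apart by 0.0014 or less in the median, with the same direction. It served as an alternative.

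Spots of 1 probe were averaged on the log2 scale, and the 75th percentile of the 41000 probes was taken off on each array. That percentile was a signal of 1115, 2074, 1158 and 1681 in SkBr3, SkBr3/Lap, BT474 and BT474/Lap, 66.6% to 74.0% of probes were well above background, and no spot was saturated. Probes with a signal of at least 100 on at least 1 array were kept (25927). RefSeq accessions named 23680 probes through the annotation of GRCh38.p14. For genes with several kept probes, the brightest on average stood for the gene. Each clone was compared with its parental array, with no test, and the number of arrays limits the precision. A probe was above background where 50% or more of its spots carried that flag.

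Resistance was tested across the lines by limma 3.58.1 (R 4.3.3) with Benjamini-Hochberg adjustment, and the code was tested on simulated data. The text names all 10 genes and, from each other list and clone, the 2 genes with the largest change above background on both arrays, plus all genes of lists of 4 or fewer. PPP1R15B, BAG3 and others are given in both clones where 1 clone named them. MARS1, XPOT and LARS1 are given for their second probes. The genes and lists were chosen with earlier results of these data known. Alternatives were the percentile over probes well above background, the median, quantile normalization, normexp (offset 50) then quantile normalization, the authors' log2 table, 16 added to the signal, no filter, a filter on background, no outlier spots, the mean over probes and a 3-fold threshold. Normexp used median pixel intensities.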

Additional observations from a re-analysis of the deposited data

Results flagged for a closer look

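With 1 array per group no difference between the clones could be tested. The following genes had opposite signs in the clones, were above background on all 4 arrays and were past 2-fold in at least 1 clone. They were taken from the 10 genes and from the 2 genes of largest change per list and clone. The log2 fold change of BT474/Lap minus that of SkBr3/Lap was -2.97 for DDIT3, -2.48 for SESN2, -3.27 for PSAT1, -2.57 for PHGDH and -1.64 for PPP1R15A. It was -1.95 for CEBPB, -2.17 for CEBPG, -1.98 for PPP1R15B, -1.67 for SLC7A5 and -3.55 for SLC7A11. For the metabolic and secreted genes it was -5.09 for CBS, -4.64 for VLDLR and -10.24 for GDF15, and for the tRNA synthetases -3.32 for WARS1 and -2.37 for YARS1. BAG3, a co-chaperone, ran the other way with 4.83. Other genes of the lists met the same limits and are left out here. DNAJC3 among them ran the way of BAG3, with -1.58 in SkBr3/Lap and 0.61 in BT474/Lap. For CEBPB and SLC7A11 the SkBr3/Lap value was 0.05 and 0.04, less than the usual range between probes of a gene. The same holds for the BT474/Lap value of PPP1R15B (-0.26) and SLC7A5 (-0.20), and the second probe of SLC7A5 gave 0.01 there. The difference was not tested for any of them.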

How the results depend on the processing

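In BT474/Lap, 7 of the 10 genes were at least 2-fold lower under all 11 alternatives, the 3-fold threshold included, and under the 10 that give a median it stayed between -1.98 and -1.67. In SkBr3/Lap the median stayed between 0.68 and 0.87, but the count of genes at least 2-fold higher moved from 2 to 1 with the percentile over probes well above background, 4 with median scaling, 1 with quantile normalization, 1 with normexp and quantile normalization, and 0 at 3-fold. Median scaling moved the median of all genes in SkBr3/Lap from -0.06 to 0.10. Of the fold changes of single genes, 3 of 100 in SkBr3/Lap and 6 of 100 in BT474/Lap moved by more than the usual range between probes, all of ATF4, TRIB3 or ASNS. TRIB3 in BT474/Lap ranged from -2.07 to -1.15 and ATF4 from -0.98 to -0.26. The sign changed under at least 1 alternative for ASNS, CHAC1, TRIB3 and ATF4 in SkBr3/Lap and for ATF3 in BT474/Lap, and for no other of the 10 genes. By limma 0 probes had an adjusted p below 0.05 under any of the 6 alternatives, and 308 to 2043 an unadjusted p below 0.05. The causes were not tested. By replicate number, no paired analysis was possible because each group has 1 array, and the limma fit paired each clone with its parental cells by cell line. All 13 probes of the 10 genes were above background. The brighter probes of ATF4 and TRIB3 gave smaller differences in BT474/Lap (-0.77 and -1.65) than the dimmer ones (-0.99 and -2.48), and whether bright signals were compressed was not tested. No replicate array shows the spread between cultures.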

Other observations

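Heat shock genes, the targets of HSF1 that answer misfolded protein in the cytosol, were also described. Of 7 measured, 2 were at least 2-fold lower in SkBr3/Lap, against 12.9% of all genes above background on both arrays, and 1 at least 2-fold higher in BT474/Lap, against 7.68%. The medians were -0.63 and -0.32. BAG3, a co-chaperone of HSP70, went from a signal of 3936 to 2769 in SkBr3/Lap (log2 difference -1.40) and from 850 to 13315 in BT474/Lap (10.8-fold higher, 3.43), and its second probe gave -1.36 and 2.96. HSPH1, a nucleotide exchange factor of HSP70, differed by -1.38 in SkBr3/Lap, and HSPA1A, the inducible HSP70, by -0.80 in BT474/Lap.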
